A study of Arabidopsis thaliana with 12 samples.

Results

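In roots of the Arabidopsis thaliana mutant kn09, 46 of 3439 array features stood higher in every mutant sample than in any wild-type (WT) sample. These features were chosen by that very contrast: the lowest of 6 deposited intensities in kn09 had to exceed the highest of 6 in WT, with no normalization. By this rule 47 features, or 1.37% of all, lay above WT. ATSIK was left out by name, and the rule also left out the 100 single-gene features brightest in WT, except AT4G13680 and AT1G01730; ATSIK was the only feature these exceptions removed. The opposite pattern, every kn09 sample below every WT sample, held in 528 features, or 15.4%. After quantile normalization and with median scaling, more features lay above WT than below, as given further on. Because the genotype contrast chose the features, their differences are described below and not tested.

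Both genotypes were of ecotype Wassilevskija, and the labels give the same treatment for both: roots on MS medium plus 100 mM glucose, for 48 h. Each had 6 samples of total RNA. The labels describe kn09 as unable to catabolize proline in mitochondria and as hypersensitive to it, but name no mutated gene or allele and do not say whether samples came from separate cultures, so the spread between samples may be technical. In plants, mitochondrial proline dehydrogenase and then P5C dehydrogenase turn proline into glutamate, and the intermediate P5C is thought to contribute to proline toxicity. Sugars are known to repress proline dehydrogenase genes, which gives the glucose treatment a link to this pathway. None of 10 genes of proline metabolism and transport and none of 10 genes of sugar sensing and response lay on any annotated feature, so the pathway itself could not be read here. Of 11 root marker genes 0 lay on an annotated feature, and of 8 green-tissue markers 1 lay on a feature listing several genes, so the tissue label could not be checked.

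In each sample the brightest 1 to 4 features stood at 100. The sources used here do not state whether this value comes from a scaling or is an upper limit. Sample medians ranged from 0.139 to 0.227 in WT and from 0.102 to 0.121 in kn09, and 153 to 235 features per WT sample and 398 to 522 per kn09 sample were exactly 0. Over the 3385 features with both means above 0, the median ratio of the kn09 mean to the WT mean was 0.565. The features above WT thus stood on the far side of a distribution that was lower in kn09. In whole roots, more transcript per cell and more cells of a type that holds it cannot be told apart.

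The platform annotation gave 1 gene to 5 of the 46 features, several genes to 10 and no entry for 31. Those shares were 10.9%, 21.7% and 67.4%, beside 20.1%, 25.3% and 54.6% of all features. Only the 5 with 1 gene are named: AT4G13680, AT1G01730, AT4G00170, AT1G73470 and AT1G74070. Probe sequences were not used here, so a name rests on that annotation alone. Other members are given by their feature number on the array.

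AT4G13680 had the largest ratio of the named genes. Its intensity ran from 1.23 to 1.72 over the WT samples, with a median of 1.47, and from 4.83 to 8.09 over the kn09 samples, with a median of 7.003. The lowest mutant sample was thus 2.81 times the highest WT sample. The means were 1.46 ± 0.160 and 6.56 ± 1.28 (SD, n = 6 each), a fold of 4.49. Mutant samples 1 and 2 were the lowest, at 4.83 and 5.17, while samples 3 to 6 lay between 6.84 and 8.09. In order of brightness AT4G13680 stood 353rd among all features in WT and 82nd in kn09.

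AT1G01730 was the brightest named gene in WT and the most even in the mutant, where its mean (6.76) was above that of AT4G13680 (6.56) and its median (6.72) below (7.003). In WT it ran from 1.63 to 2.91 with a median of 2.20, and in kn09 from 6.38 to 7.48 with a median of 6.72. Its coefficient of variation was 21.7% in WT and 5.66% in kn09. Consecutive WT samples had similar values, with 1.63 and 1.76 in samples 1 and 2, 2.91 and 2.56 in samples 3 and 4, and 2.18 and 2.22 in samples 5 and 6. Its means of 2.21 ± 0.479 and 6.76 ± 0.383 (SD, n = 6 each) gave a fold of 3.06, and it moved from 241st to 80th in brightness.

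AT4G00170 belongs to the VAP family, whose proteins are anchored in the endoplasmic reticulum and contribute to its contacts with other membranes. It was dimmer, running from 0.292 to 0.435 in WT, with a median of 0.354, and from 0.725 to 0.979 in kn09, with a median of 0.857. All mutant samples were at least 1.66 times the highest WT sample. Its means were 0.360 ± 0.0548 and 0.859 ± 0.0945 (SD, n = 6 each), 2.38 times as high in the mutant. Both genotypes varied little, with coefficients of variation of 15.2% and 11.001%.

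AT1G73470 ran from 0.173 to 0.392 in WT, with a median of 0.298, and from 0.485 to 0.645 in kn09, with a median of 0.539. The WT samples were split: samples 1 to 3 had 0.392, 0.380 and 0.384, while samples 4 to 6 had 0.216, 0.173 and 0.214. The lowest mutant sample, at 0.485, was 1.24 times the highest of these. Means of 0.293 ± 0.102 and 0.554 ± 0.0674 (SD, n = 6 each) gave a fold of 1.89.

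AT1G74070 encodes a cyclophilin, a class of proteins that speed the isomerization of peptide bonds at proline residues. It had the narrowest separation of the named genes. WT samples ran from 0.587 to 0.880 with a median of 0.778, and kn09 samples from 0.917 to 1.37 with a median of 1.097. The nearest samples of the genotypes, WT sample 6 at 0.880 and kn09 sample 1 at 0.917, differed by a ratio of 1.04. Its means of 0.752 ± 0.124 and 1.13 ± 0.183 (SD, n = 6 each) gave a fold of 1.505.

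**Figure D1:**
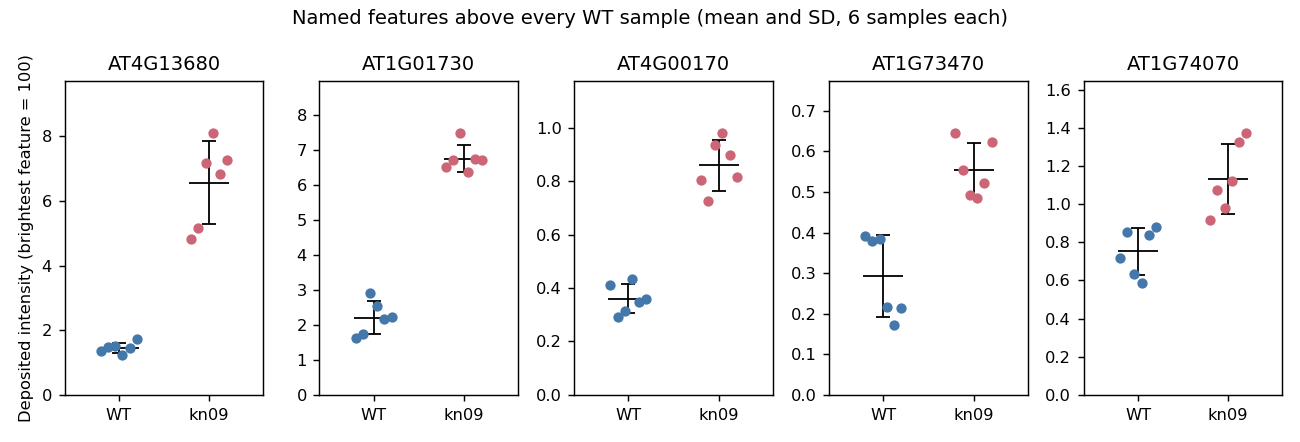
Deposited intensity of the 5 named features, 1 panel each with its own axis from 0; points are the 6 samples of a genotype in numerical order from left to right, and bars give the mean and SD. AT4G13680 and AT1G01730 are far apart between genotypes, while for AT1G74070 the closest samples are 0.880 and 0.917.

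The named genes did not hold the largest ratios. Over the 46 features the fold ran from 1.24 to 16.2 with a median of 2.68, and 17 lay under 2, 16 from 2 to 5 and 13 at 5 or above. None of those 13 had a single gene in the annotation. Their kn09 means ran from 0.667 to 16.2 with a median of 3.09, from WT means of 0.0615 to 2.05. In each of the 13 the lowest mutant sample was at least 2.65 times the highest WT sample. Among all features with both means above 0, 30 had a fold of 5 or more, and the other 17 had overlapping genotypes.

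Feature 2704, which the annotation does not list, had the largest fold as deposited. It ran from 0.00814 to 0.125 in WT, with a median of 0.0629, and from 0.643 to 1.31 in kn09, with a median of 1.04. Its fold of 16.2 started from a WT mean of 0.0615 ± 0.0390 (SD, n = 6), brighter than 14.2% of all features. Feature 2337, also unlisted, was much alike, with WT values from 0.0331 to 0.161 around a median of 0.106 and kn09 values from 1.08 to 1.88 around a median of 1.66. Its fold was 15.9. After quantile normalization the folds of features 2704 and 2337 were 29.0 and 26.0, with median scaling 24.56 and 24.62, and scaled to feature 3499, described below, 12.8 and 12.7. These and the features below were picked out after their values were seen, apart from feature 2704 as the largest fold and feature 2881 as the brightest.

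The widest separation as deposited belonged to feature 778, which lists several genes, and so it did with median scaling. After quantile normalization feature 2337 was wider, with a lowest mutant sample 12.50 times the highest WT sample against 12.30 for feature 778, and scaled to feature 3499 features 668 (5.42) and 10 (4.84) passed it (4.81). The WT samples of feature 778 lay between 0.136 and 0.288 (median 0.198) and its kn09 samples between 2.27 and 4.50 (median 2.59), so that the lowest mutant sample was 7.85 times the highest WT sample. Feature 668, listing 3 genes, went from between 0.724 and 1.27 in WT (median 0.878) to between 8.27 and 11.97 in kn09 (median 9.24). The lowest mutant sample of feature 668 was 6.50 times its highest WT sample.

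Among the features with a fold of 5 or more, 4 reached a kn09 mean above 10. Feature 10 had the highest, with WT values from 1.27 to 2.81 (median 2.05) and kn09 values from 14.2 to 17.6 (median 16.6). Feature 1000 ran from 1.15 to 2.28 in WT (median 1.59) and from 12.03 to 19.1 in kn09 (median 14.9). Feature 1126 ran from 0.994 to 1.88 (median 1.44) and from 11.7 to 16.7 (median 13.6). In all 3 the mutant samples were at least 5.04 times the highest WT sample. Feature 1138 had the most even WT values of these, 1.71 to 1.86 with a median of 1.79, against 9.03 to 15.7 with a median of 12.9 in kn09.

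**Figure D2:**
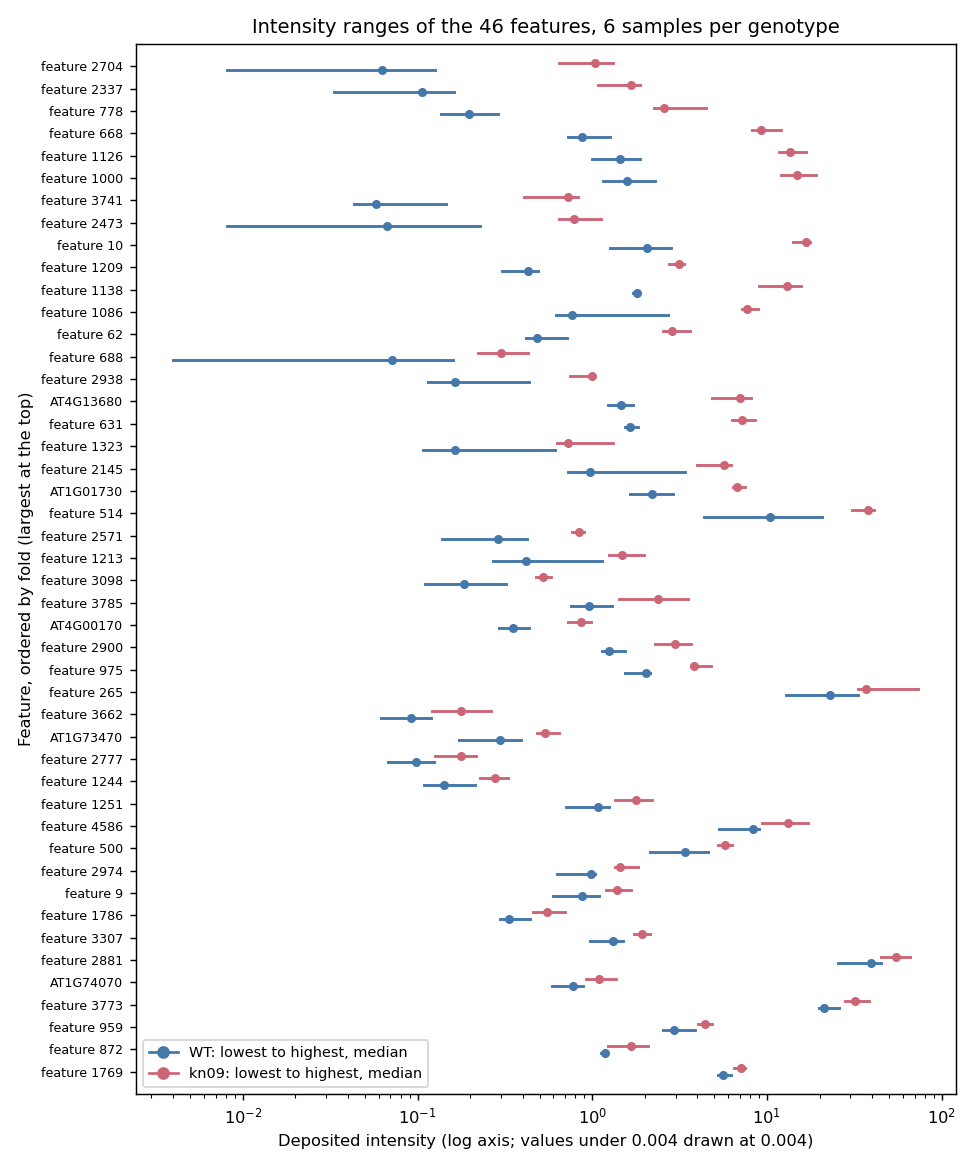
Each of the 46 features has a blue line for the WT samples and a red line for the kn09 samples, from the lowest to the highest deposited intensity with a dot at the median, on a log axis; features are ordered by fold. The separation is wide at the top, with ratios of 5.13 for feature 2704 and 7.85 for feature 778, and closes to 1.001 for feature 2881.

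In WT, 7 of the features had means under 0.1, 17 from 0.1 to 1, 18 from 1 to 10 and 4 at 10 or above. In kn09 the same classes held 0, 14, 23 and 9. The median member was brighter than 85.7% of all features in WT and than 94.5% in kn09, and members among the 100 brightest features numbered 6 in WT and 16 in kn09. All 46 exceeded the median feature mean of kn09, 0.103, and 37 exceeded that of WT, 0.200. No member stood at 100 in any sample, the highest value being 73.5.

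The 4 features with WT means of 10 or above showed smaller ratios than the leading ones. Feature 2881, the brightest, ran from 25.5 to 44.8 in WT (median 39.6) and from 44.9 to 65.5 in kn09 (median 54.7), and its fold was 1.52. Feature 265 had a fold of 2.06 and the widest mutant values, from 33.4 to 73.5 (median 37.0), above WT values of 12.9 to 33.1 (median 22.9). For feature 3773 WT values of 19.7 to 26.0 (median 21.3) stood beside kn09 values of 27.8 to 38.5 (median 31.9), a fold of 1.44. Feature 514 had the largest fold of these bright features, 3.01, and ran from 4.36 to 20.6 in WT (median 10.5) and from 30.8 to 40.7 in kn09 (median 37.9). The first 3 of these bright features barely cleared the rule, with ratios of lowest mutant to highest WT sample of 1.001, 1.008 and 1.07.

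**Figure D3:**
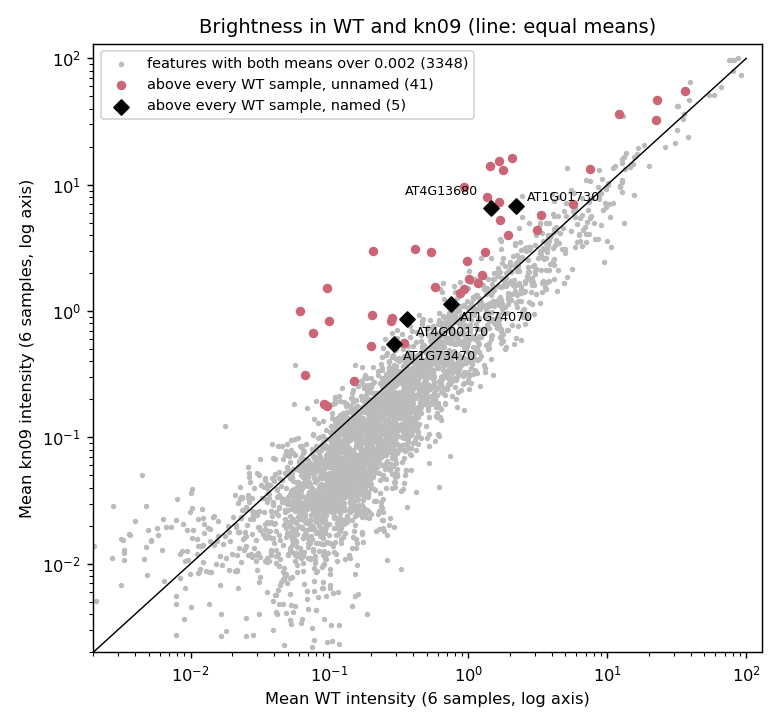
Mean kn09 intensity against mean WT intensity on log axes, 1 point per feature, with a line at equal means; grey points are all features with both means over 0.002, red the 41 unnamed and black the 5 named features of the set. Most features lie below the line (median ratio 0.565), and the set lies above it over the whole range from WT means of 0.0615 to 36.2.

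Many features lay near the edge of the rule. The ratio of the lowest kn09 to the highest WT sample was under 1.1 in 16 of the 46, at least 1.5 in 20, at least 2 in 16 and at least 5 in 8. Just inside was feature 2881 at a ratio of 1.001, and of the named genes AT1G74070 at 1.04. Of the named features with every mutant value above 0, those just outside were AT3G09080, AT1G24040 and AT1G65500. AT3G09080 had a WT maximum of 5.27 and a kn09 minimum of 5.23, a ratio of 0.991, with a fold of 1.36. AT1G24040 had 0.763 and 0.750, a ratio of 0.982, and its fold of 1.84 exceeded that of AT1G74070 inside the rule. AT1G65500 had 0.180 and 0.170, a ratio of 0.944, and a fold of 1.91.

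The spread between samples was smaller in the mutant relative to the level. The coefficient of variation had a median of 25.0% in WT (2.60% to 92.8%) and 14.7% in kn09 (5.06% to 37.1%), and it was lower in kn09 for 36 of the 46. Over all features the medians were 42.7% and 46.6%, and it was lower in kn09 for 44.3%. A rule that asks for separated groups takes up features with little spread. It also asks for a higher level in kn09, by which the spread in kn09 is divided. These values are thus a description. In absolute terms the standard deviation was higher in kn09 for 31 of the 46. Only 1 member, feature 688, held zeros, 2 of its WT values.

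The features did not share 1 decisive sample. The highest WT value came from sample 1 or 2 in 19 of them, from sample 3 or 4 in 20 and from sample 5 or 6 in 7. Over all features these shares were 36.7%, 50.2% and 13.1%, samples 5 and 6 having the lowest WT medians. The lowest mutant value came from sample 1 in 13 features and from samples 2 to 6 in 4 to 8 each. Summed over the 46 features, the intensity ran from 124.5 to 155.0 in WT (median 145.2) and from 323.5 to 368.8 in kn09 (median 343.8). This was 3.73% to 4.68% of a WT sample's total and 9.91% to 11.5% of a kn09 sample's. A higher sum in every kn09 sample follows from the rule. The brightest features weigh most in it. Features 2881, 265, 3773 and 514 had WT means of 36.2, 22.8, 22.4 and 12.1. Their kn09 means were 55.2, 46.9, 32.3 and 36.3, and the first 3 barely cleared the rule. The 13 features with a fold of 5 or more made up 0.260% to 0.420% in WT and 2.63% to 3.12% in kn09.

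On the list of feature numbers only features 9 and 10 were neighbours, and their folds were 1.61 and 7.91. With 46 of 3439 features chosen, few neighbours arise by chance, so nothing is read from that count. Of the other features numbered next to a member, 59 had both means above 0, with a median fold of 0.502, close to that of all features at 0.565. A fold above 1 was seen in 20.3% of these neighbours and in 18.6% of all features. Members made up 2.16% of the features numbered 1 to 1200, 1.051% of those from 1201 to 2400, 1.28% of those from 2401 to 3600 and 0.782% of the later ones.

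For 3 of the 10 features listing several genes, some other feature listed a gene in common. None of these 4 other features shared the pattern, but only 1.37% of all features had it, so little is read from this. Feature 668, with a fold of 10.4, shares a gene with a single-gene feature of mean intensity 58.7 in WT and 51.4 in kn09, a fold of 0.877. Feature 2145 had a fold of 3.11, while the other feature, listing 4 genes, had means of 0.152 in WT and 0.00555 in kn09. The partners of feature 3307, whose fold was 1.53, list 3 and 2 genes and had WT means of 0.0541 and 0.224. Their folds were 0.697 and 0.913. The values of a feature with several genes cannot be passed on to any gene it lists.

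The scale on which samples were compared set how many features stood above WT. Over all features the median log2 difference stood at -0.85 as deposited, -0.06 after quantile normalization and -0.34 with median scaling. After quantile normalization, which gives all samples the same distribution, 166 features or 4.83% did, among them 41 of the 46. With each sample divided by the median of its non-zero values, 217 or 6.31% did, among them all 46. This median scaling leaves out the zeros, which were more frequent in kn09. Below every WT sample lay 116 features (3.37%) after quantile normalization and 143 (4.16%) with median scaling, in place of 528 as deposited. Of the 5 members that overlapped after quantile normalization none was named. They had deposited ratios of lowest mutant to highest WT sample of at most 1.07 and included features 2881, 265 and 3773. Feature 3499, which is no member, stood at 100 in every mutant sample but at 61.3 to 100 in WT. Scaling to this feature thus leaves mutant values as deposited and raises WT values where it stood below 100. Whether 100 was an upper limit for this feature is not known. With every sample scaled to it instead, an alternative chosen after the data were seen, 27 features stood above WT, 26 of them members. All 13 with a fold of 5 or more did so, as did 12 of the 16 from 2 to 5 and 1 of the 17 under 2. AT4G13680, AT1G01730 and AT4G00170 kept clear of WT on that scale, with ratios of 1.97, 1.34 and 1.19, while AT1G73470 and AT1G74070 overlapped it, at 0.774 and 0.888.

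The ratios of the named genes moved with the scale. With median scaling the folds of AT4G13680, AT1G01730, AT4G00170, AT1G73470 and AT1G74070 were 6.33, 4.39, 3.403, 2.85 and 2.12. After quantile normalization the fold of AT4G13680 was 5.12, that of AT1G01730 3.31, that of AT4G00170 3.32, that of AT1G73470 2.77 and that of AT1G74070 1.92. Scaled to feature 3499 they were, in the same order, 3.79, 2.48, 1.999, 1.57 and 1.29. On log2 of the quantile-normalized values the fitted differences in limma, kn09 minus WT, were 2.36 ± 0.16, 1.75 ± 0.17, 1.76 ± 0.18, 1.501 ± 0.23 and 0.97 ± 0.20 (SE). That fit, across all features, called 223 or 6.48% of features higher in kn09 at an adjusted p under 0.05, and 217 or 6.31% lower; 41 of the 46 and all 5 named ones were among the higher ones. Since the rule used this contrast, nothing is read from that share. On the intensities as deposited the fit called 99 higher and 1158 lower. With consecutive samples as a random block it called 55 higher, 36 of them members, and with the replicate number as a block 95, 38 of them members. Consecutive samples (1 and 2, 3 and 4, 5 and 6) correlated at a mean r of 0.910 in WT and 0.844 in kn09, against 0.845 and 0.818 for other samples of a genotype (3 and 12 pairs each, across features, which are not independent). The SDs and SEs given here take the 6 samples of a genotype as separate.

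**Figure D4:**
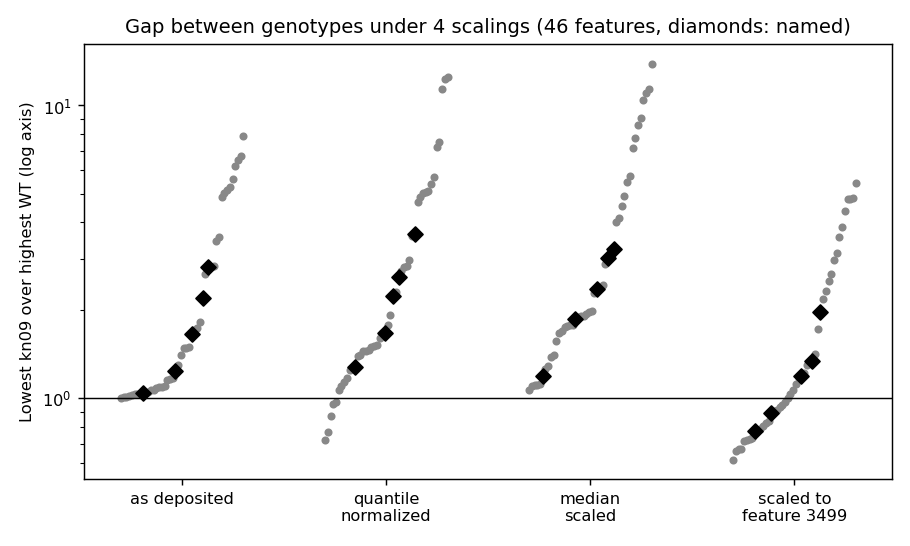
Ratio of the lowest kn09 to the highest WT sample on a log axis for the 46 features on 4 scales, points sorted within a scale and diamonds marking the 5 named features; the line at 1 parts separated from overlapping genotypes. As deposited all lie above it by the rule, after quantile normalization 41, after median scaling 46 and scaled to feature 3499 26.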

How the data were processed

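The values deposited by the authors are linear array intensities for 12 samples; scanning, background correction and scaling are not stated in the sources used here. Groups came from the sample titles. The number of arrays limits the precision. Members were selected on the deposited intensities, with no pseudocount or filter, in Python 3.11.15 with pandas 2.3.3. A fold is the ratio of mean intensities, kn09 over WT. For the fit across all features, intensities were quantile normalized, a floor of 0.0062, the 1st percentile of normalized values whose deposited value was above 0, replaced zeros and anything lower, and log2 values were fitted in limma 3.58.1 (R 4.3.3), with Benjamini-Hochberg adjustment. The fit was also run on simulated data with independent noise in each sample. Such data cannot show what the likeness of consecutive samples does to the calls. Names came from the platform annotation, updated by Entrez identifier to TAIR10.1, which matched 690 of 692 single-gene features; coordinates are left out because no source used here names the array's genome build. All single-gene members are named, with the 3 single-gene features just outside the rule. The members and the gene lists were chosen with earlier results of these data known. Promoter and protein sequences were not used here.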

Additional observations from a re-analysis of the deposited data

Results flagged for a closer look

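Of 18 sets of 6 values checked (the 5 named genes, features 2704 and 2881, and the summed intensity of the set and its share of the sample total, in each genotype), 1 held a sample far from the others, where chance gives about 1 in 20. AT1G01730 stood at 7.48 in kn09 sample 3, while the other mutant samples lay between 6.38 and 6.75. The gap was 0.664 of the whole mutant range, above Dixon's 95% critical value for 6 samples. The sample deviates upward, away from WT, and without any single sample the fold of AT1G01730 lay between 2.91 and 3.27.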

How the results depend on the processing

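The count of features above every WT sample, 47 as deposited, was 166 after quantile normalization and 217 with median scaling. With means of consecutive samples (3 values a genotype, fewer values to separate) it was 90, with a lowest mutant sample at least 1.5 times the highest WT sample, a stricter rule, 20, and scaled to feature 3499 it was 27. A WT mean of at least 0.1, which can only remove features, left 40. Leaving out samples can only keep or add features under this rule, so those counts could not fall below 47. Leaving out 1 sample gave 47 to 57. Without WT samples 5 and 6, also chosen after seeing the data, the count was 58. The limma count of 223 higher features was 95 with the replicate number as a block (replicate block), 55 with consecutive samples as a random block, 99 on the intensities as deposited, 263 with median scaling, 321 with zeros as missing, 282 with a mean intensity of at least 0.1 and 108 to 258 without 1 sample, the lowest without kn09 sample 2; it was 110 without WT sample 3. Other single samples whose omission moved it by over 1.5 times were WT samples 4, 5 and 6 and kn09 samples 1, 3, 4, 5 and 6, with 119 to 145. The cause was not tested. The members called numbered 41, 38 with the replicate block and 36 to 46 under the alternatives tried. The 36 were among 55 features called with the random block, and the 46 among 263 with median scaling. Since the rule used this contrast, nothing is read from these numbers or from how little they moved. The labels state no pairing, so the main fit did not take the numbers as pairs. Same-numbered samples of the genotypes had deviations correlated at 0.0683 to 0.0995, none of the 6 over 0.1. Yet 12 of 12 samples were closest to their own number in the other genotype, which counts the same 6 pairs from both sides. This is a hint from the data that same-numbered samples may be paired.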
